A study of Mus musculus with 4 samples.

Results

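Alternative activation genes are the transcripts by which a macrophage or monocyte answering IL-4 and IL-13 is usually recognised. The 8 genes described here were taken by name: *Mrc1*, *Il4ra*, *Cd163*, *Arg1*, *Tgm2*, *Chil3*, *Retnla* and *Ear2*, out of 27998 genes in the deposited table, of which 16898 had at least 1 unique molecular identifier (UMI, a tag that marks 1 captured mRNA molecule). The rule that lists them uses no measured value, but the list was drawn up with earlier results of these data known. Their levels were read by the deposited cell type and condition, and by the deposited cluster and gated subset of the monocyte, macrophage and dendritic cell (DC) compartment.

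IL-4 and IL-13 signal through the IL-4 receptor alpha chain, which activates the transcription factor STAT6 and with it genes such as *Arg1*, *Chil3* and *Retnla*. Several of the 8 genes are not restricted to that response. *Chil3* is also made by neutrophils, their precursors and Ly6C+ classical monocytes, *Mrc1* and *Cd163* are typical of resident macrophages, and eosinophil-associated ribonucleases belong to a large rodent gene family.

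CITE-seq, which counts the mRNA and a panel of antibody tags of the same cell, was run on CD11b+ splenocytes sorted by FACS from C57BL/6 mice of 8 to 12 weeks. The first library came from mice in the steady state, and the second from mice that had received 3 once-daily subcutaneous injections of 10 µg of GM-CSF, with the spleen taken 24 hours after the last injection. The number of mice behind each library was not given in the sources used here. With 1 library per condition there is no replicate check and no test, so every difference below is between 2 libraries.

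The steady-state library held 4827 cells with a median of 3371 UMIs per cell, and the GM-CSF library held 6804 cells with a median of 4916. Of the 11631 cells, 6075 belonged to the MoMacDC bundle, the cells the depositors had labelled MoMacDC_c1, c2, c4, c5 and Progenitor DC: 2135 cells in the steady state (median 6894 UMIs) and 3940 after GM-CSF (median 6654 UMIs). The libraries shared 8 cell barcodes. Markers went with the labels of most cell types, but the cluster deposited as cDC2-A carried the NK cells list at 18503 CPM in the steady state and 19529 CPM after GM-CSF, so it is named below only by its label. Transcripts typical of other cells were also counted in lymphocytes. The neutrophils list (9 genes) summed to 3054 CPM in the pooled B and T cells of the steady state and to 669 CPM in those of the GM-CSF library. Whether these counts came from free RNA, doublets or mislabelled cells was not tested. For that reason B and T cells, 370 in the steady state (median 3456.5 UMIs) and 118 after GM-CSF (median 2499.5 UMIs), serve as the background for genes that lymphocytes are known to lack. That background is a comparison and not a floor for the library. In the steady state Granulocyte cells had 4.08 CPM of *Ear2* against 63.6 CPM in B and T cells, and 16.1 CPM of *Chil3* against 128 CPM.

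Levels are given as CPM, the gene's UMI total in a set of cells for every 1000000 UMIs of those cells. Brackets hold 95% intervals (exact Poisson for levels, exact binomial for shares and for ratios of sums), which cover counting error only. A gene was counted as higher or lower when its ratio, after 0.5 counts had been added to each sum, passed 2-fold and at least 50 UMIs were present over both groups. The sums follow the molecules captured, so a lower level cannot be divided into fewer expressing cells and less RNA per cell, except where shares of positive cells are given.

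The sequences in front of the 4 members with RefSeq promoter entries on which the results below turn, those that differed most between libraries or were confined to few cells, are shown here (GRCm38.p6, each 5′ to 3′ on the gene's strand and ending just before the GENCODE gene start). Capitals mark matches on either strand to 3 short motifs: a GAS-type STAT site (TTCNNNGAA), a STAT6-type site (the same ends with 4 bases of any kind between them) and the PU.1 core (GAGGAA). The windows shown are chr3:106167565-106167814 (minus strand) for *Chil3*, chr16:48842359-48842550 (plus strand) for *Retnla*, chr2:14229164-14229391 (plus strand) for *Mrc1* and chr14:44102404-44102653 (plus strand) for *Ear2*.
Chil3: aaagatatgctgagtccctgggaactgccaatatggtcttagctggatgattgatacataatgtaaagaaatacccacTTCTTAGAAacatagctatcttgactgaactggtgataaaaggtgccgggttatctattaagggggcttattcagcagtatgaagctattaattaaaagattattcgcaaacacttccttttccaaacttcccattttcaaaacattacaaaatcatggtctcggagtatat
Retnla: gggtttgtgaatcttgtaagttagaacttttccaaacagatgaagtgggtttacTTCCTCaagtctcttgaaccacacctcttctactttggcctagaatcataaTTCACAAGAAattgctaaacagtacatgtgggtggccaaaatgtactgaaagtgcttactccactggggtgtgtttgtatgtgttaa
Mrc1: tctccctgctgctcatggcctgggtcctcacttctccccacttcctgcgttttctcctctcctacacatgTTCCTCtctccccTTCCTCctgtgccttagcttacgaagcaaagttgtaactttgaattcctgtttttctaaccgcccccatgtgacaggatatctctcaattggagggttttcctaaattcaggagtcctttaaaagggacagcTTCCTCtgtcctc
Ear2: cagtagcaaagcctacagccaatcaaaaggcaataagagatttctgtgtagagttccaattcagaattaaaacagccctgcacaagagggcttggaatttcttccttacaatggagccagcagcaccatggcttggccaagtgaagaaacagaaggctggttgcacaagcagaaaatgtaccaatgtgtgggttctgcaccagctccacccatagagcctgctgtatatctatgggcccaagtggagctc
In the 250 bases before the RefSeq start, *Chil3* had 1 GAS-type match, which began at position -172, and *Retnla* had 1 STAT6-type match at -145 and 1 PU.1 core match at -196. *Mrc1* had 3 PU.1 core matches, and *Ear2*, *Il4ra* and *Cd163* had no match to any of the 3. Among 32851 mouse promoters of the same length, 7.02% held the GAS-type letters, 5.85% the STAT6-type letters and 23.3% the PU.1 core, so that such matches are common, and a match describes the letters and not a bound site. *Arg1* and *Tgm2* were not in the promoter table, which matched 6 of the 8.

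Over the whole MoMacDC bundle the 8 genes did not move as a block. *Chil3* and *Tgm2* were lower after GM-CSF, *Mrc1* was higher, *Ear2* was higher by less than 2-fold, *Il4ra* and *Cd163* stayed within 2-fold, and *Arg1* and *Retnla* were hardly detected. Of the 8 members, 6 had 50 UMIs or more. Of these, 1 was counted as higher, against 8.66% of the 10860 genes measured in that way, and 2 were counted as lower, against 9.46%; the median log2 ratio of all those genes was -0.06.

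The receptors are described first. *Mrc1* (chr2:14229392-14332057, plus strand) encodes the macrophage mannose receptor CD206, an endocytic lectin. Its level in the bundle was 6.62 CPM [5.38 to 8.06] in the steady state, from 99 UMIs, and 24.03 CPM [22.2 to 26.0] after GM-CSF, from 651 UMIs, a 3.63-fold difference [2.93 to 4.53]. Cells with at least 1 *Mrc1* UMI made up 2.39% of the bundle in the steady state and 10.6% after GM-CSF, or 0.471% and 2.27% once every cell had been thinned to 1000 UMIs. No *Mrc1* UMI was found in the B and T cells of either library. The highest level was in the cells deposited as Macrophage, at 1235 CPM in 25 steady-state cells and 804 CPM in 22 cells after GM-CSF, where 92.0% and 59.1% of cells were positive. These cells carried the red pulp macrophages list at 29994 and 29650 CPM, while the clusters of the bundle lay between 33.7 and 535 CPM for the same list in the steady state and between 208 and 480 CPM after GM-CSF. All 99 steady-state *Mrc1* UMIs of the bundle, and 625 of the 651 after GM-CSF, came from cells with no UMI of the C1q genes that mark resident macrophages.

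Within the bundle, *Mrc1* differed by cell type. In MoMacDC_c1 it was 6.09 CPM in the steady state and 37.6 CPM after GM-CSF, a 6.18-fold difference [4.66 to 8.31]. In MoMacDC_c2 it was 25.1 and 26.4 CPM, a ratio of 1.05 [0.752 to 1.51]. MoMacDC_c5 and Progenitor DC had no *Mrc1* UMI in either library, in 486 and 152 cells of the steady state and in 139 and 393 cells after GM-CSF, which, at 3 counts of the total, allows shares of cells with a UMI of up to 0.617%, 1.97%, 2.16% and 0.763%. In MoMacDC_c4 it was 2.23 CPM (1 UMI in 43 cells) and 13.8 CPM (79 UMIs in 595 cells), a ratio of 6.19 [1.08 to 247]. The intervals of the c1 and c2 ratios did not overlap. The c2 cells, at a like level in both libraries, numbered 177 of 2135 bundle cells in the steady state and 1471 of 3940 after GM-CSF, and held 246 of the 651 UMIs there, so the higher bundle level also went with more c2 cells.

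*Il4ra* (chr7:125552120-125579474, plus strand) encodes the IL-4 receptor alpha chain, the entry point of the whole response. It was the most evenly spread of the 8. Its bundle level was 49.2 CPM in the steady state and 37.6 CPM after GM-CSF, a ratio of 0.763 [0.694 to 0.841]. In the steady state the highest levels were in the Granulocyte cells, at 152 and 167 CPM (ratio 1.101 [0.966 to 1.25]), and in lymphocytes, which are known to carry the receptor: B cells were at 113 and 67.7 CPM and T cells at 106 and 72.04 CPM. After GM-CSF Granulocyte cells still led, and MoMacDC_c5, at 40.9 CPM in the steady state, was at 79.3 CPM (31 UMIs in 139 cells), in the range of the lymphocytes. Neutrophils were lowest among the large populations at 24.7 and 22.9 CPM. Of 11 clusters of the bundle with enough *Il4ra* UMIs, 8 had an interval that held 1, 1 lay above and 2 below, and none passed 2-fold. The cluster above was cluster 4 (39.7 CPM in the steady state and 76.0 CPM after GM-CSF).

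*Cd163* (chr6:124304656-124330527, plus strand) encodes the scavenger receptor for haemoglobin-haptoglobin complexes. It was rare, with 44 UMIs in 26 cells of the steady-state bundle and 86 UMIs in 76 cells after GM-CSF, or 2.94 and 3.17 CPM (ratio 1.08 [0.742 to 1.59]). The equal totals hid a different placement. In the steady state 33 of the 44 UMIs lay in the 88 cells of cluster 3, where the level was 45.4 CPM and 20.5% of cells were positive (no B or T cell of either library had a UMI), and in the 512 cells of that cluster after GM-CSF the level was 3.83 CPM. After GM-CSF the UMIs were scattered, and no cluster with 20 cells or more was above 6.59 CPM. All 44 steady-state UMIs and 78 of the 86 after GM-CSF were in cells with no C1q UMI. In the Macrophage cells only 4 UMIs (41.5 CPM) and 7 UMIs (148 CPM) were counted.

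The enzymes came next. *Tgm2* (chr2:158116402-158146436, minus strand) encodes transglutaminase 2, which cross-links proteins and is a marker of alternative activation in both human and mouse macrophages. Its bundle level was 83.9 CPM [79.3 to 88.6] in the steady state and 14.03 CPM [12.7 to 15.5] after GM-CSF, that is 5.98-fold lower [5.33 to 6.72]. Steady-state *Tgm2* was highest in Progenitor DC at 321 CPM with 79.6% of cells positive, followed by MoMacDC_c5 at 229 CPM and Macrophage at 228 CPM, the latter in 25 cells. After GM-CSF the Progenitor DC were at 81.9 CPM with 42.0% positive, MoMacDC_c5 at 76.8 CPM, and the 22 Macrophage cells at 233 CPM. MoMacDC_c1 went from 24.4 to 5.89 CPM and MoMacDC_c2 from 80.8 to 4.62 CPM. *Tgm2* was thus lower in Progenitor DC and in MoMacDC_c5 and c2, and was at a like level in the few macrophages, in which 22 and 11 UMIs were counted. MoMacDC_c4 had only 4 and 12 UMIs. The B and T cells gave 21.8 CPM and 5.74 CPM [0.696 to 20.7], with 7.03% and 0.847% of cells positive. The second value came from 2 UMIs in 1 of 118 cells and is a loose guide. The c1 values and the c2 value after GM-CSF were near these levels, so they are not read as expression by those cells. For c1 no difference is read, and for c2 the size of the difference is not read.

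*Arg1* (chr10:24915221-24927484, minus strand) encodes arginase 1, which turns arginine into ornithine and urea and is the most used marker of the response in the mouse. It was all but absent from these libraries, with 8 UMIs in 6 cells of 11631. The steady-state bundle had 0 UMIs in 2135 cells, which allows a share of cells with a UMI of up to 0.141% (3 counts of the total). After GM-CSF 7 UMIs lay in 5 of the 3940 cells of the bundle, 3 in MoMacDC_c1 and 4 in MoMacDC_c4, and the remaining UMI was in 1 steady-state T cell.

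*Chil3* (chr3:106147554-106167564, minus strand) encodes Ym1, a secreted chitinase-like protein. Its highest levels were in the cells deposited as Neutrophil, at 7484 CPM in 146 steady-state cells and 7675 CPM in 893 cells after GM-CSF, with 87.0% and 89.2% of cells positive. In the bundle it was 1803 CPM [1782 to 1825] in the steady state and 268 CPM [262 to 274] after GM-CSF, 6.73-fold lower [6.56 to 6.91]. MoMacDC_c1 was the main source, at 2696 CPM with 77.4% of cells positive in the steady state and 394 CPM with 36.2% positive after GM-CSF, and the other 4 types were lower after GM-CSF as well. The values were 370 and 139 CPM in c2, 634 and 428 CPM in c4, 133 and 64.0 CPM in c5, and 109 and 23.1 CPM in Progenitor DC. The steady-state c4 value came from 285 UMIs in 43 cells. Single steady-state cells of the bundle held up to 169 UMIs, so the c4 direction may rest on few cells. The B and T cells were at 128 and 17.2 CPM, with 7.03% and 4.24% of cells positive. The first value came from 206 UMIs in 26 cells, with 85 of these UMIs in 1 cell. The second came from 6 UMIs in 5 cells, with an interval of 6.32 to 37.5 CPM. The steady-state values of c5 and Progenitor DC lay at the level of the steady-state B and T cells. The classical monocytes list, whose genes were measured apart from *Chil3*, moved in the same direction in MoMacDC_c1, from 2598 to 838 CPM.

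*Retnla* (chr16:48842551-48844461, plus strand) encodes RELM-alpha or FIZZ1, a small secreted cysteine-rich protein. All 118 of its UMIs were in the GM-CSF library. They were not spread over that library: 91 came from 9 of the 893 Neutrophil cells, 57 of them from 1 cell, and 19 came from 6 Granulocyte cells, 12 of them from 1 cell. The bundle held 8 UMIs in 8 cells after GM-CSF and 0 UMIs in the steady state, which allows the same 0.141%. The 9 Neutrophil cells were also high in *Retnlg*, the neutrophil member of the same family, at 34740 CPM against 10524 CPM in the other Neutrophil cells. They had no UMI of the eosinophils list or of the basophils and mast cells list. With so few cells the values describe those cells and not the population.

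*Ear2* (chr14:44102654-44103534, plus strand) encodes eosinophil-associated ribonuclease A family member 2. Its near-identical relatives can share reads, and of those in the table *Ear1*, *Ear6* and *Ear10* had 21, 133 and 1 UMIs in all, so that the *Ear2* count may hold reads of other members. The bundle was at 217 CPM [210 to 225] in the steady state and 331 CPM [325 to 338] after GM-CSF, 1.53-fold higher [1.47 to 1.59], and the share of positive cells was 45.1% and 73.1% (thinned, 20.5% and 26.4%). In the steady state *Ear2* was concentrated in MoMacDC_c5 at 765 CPM, and after GM-CSF those cells were at 594 CPM. The order among the other types changed. MoMacDC_c1 went from 132 to 334 CPM (2.53-fold [2.37 to 2.71]), c2 from 90.8 to 401 CPM (4.41-fold [3.74 to 5.25]), and c4 from 8.90 CPM (4 UMIs in 43 cells) to 286 CPM. Progenitor DC were at 159 CPM in both libraries. The 4 numbered MoMacDC types thus lay between 8.90 and 765 CPM in the steady state and drew together to between 286 and 594 CPM after GM-CSF. The B and T cells were at 63.6 and 28.7 CPM, with 8.11% and 4.24% of cells positive, and every MoMacDC type after GM-CSF was above that. The steady-state c4 level lay below that background, so no fold is read from it. B cells alone were at 104 CPM in the steady state, above the 90.8 CPM of c2, so the size of the c2 fold is not read either.

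**Figure D1:**
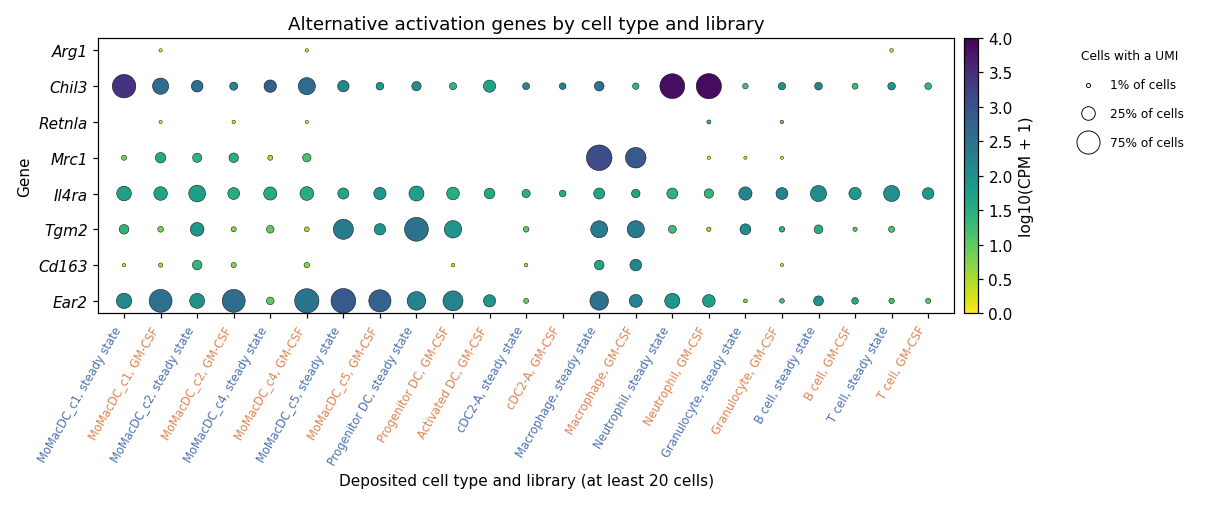
Level and share of positive cells for the 8 genes in each deposited cell type with at least 20 cells. The x axis gives the cell type and library, the y axis the gene, the colour the level as log10(CPM + 1), and the area of a dot the percent of cells with a UMI. Neutrophil cells hold the darkest *Chil3* dots (7484 and 7675 CPM), Macrophage cells the darkest *Mrc1* dots (1235 and 804 CPM), and the *Arg1* and *Retnla* rows are nearly empty.

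The plot of cell types also shows that the Granulocyte cluster, whose neutrophils list summed to 106503 and 103085 CPM, differed from the Neutrophil cluster for these genes. *Chil3* in Granulocyte cells was 16.1 CPM [12.2 to 20.7] in 1929 steady-state cells and 78.7 CPM [67.9 to 90.8] in 1791 cells after GM-CSF, 4.90-fold higher [3.64 to 6.68], where the MoMacDC types were lower. The steady-state level was below the 128 CPM of B and T cells and is therefore read as background. After GM-CSF the level was above their 17.2 CPM [6.32 to 37.5]. The shares of positive cells were 3.01% and 6.31%, against 7.03% and 4.24% in B and T cells, but at unequal depth. After GM-CSF the median was 1229 UMIs in Granulocyte cells and 2499.5 in B and T cells. Thinned to 1000 UMIs per cell, the share after GM-CSF was 4.56% against 0.862% [0.0218 to 4.71] of B and T cells. The latter was 1 of 116 cells, and its interval holds 4.56%. Thinning also dropped 578 cells of the GM-CSF library, of which only 61 were in the bundle. Without the cells that carried a UMI of the granule genes *Camp*, *Ltf* or *Ngp*, a choice made once the values were known, the *Chil3* ratio was 2.61. *Tgm2* in Granulocyte cells was 113 CPM in the steady state and 24.5 CPM after GM-CSF, 4.64-fold lower [3.53 to 6.20]. Of these cells 15.5% and 3.13% were positive, against 7.03% and 0.847% (1 of 118 cells) of B and T cells. *Ear2* was 4.08 and 14.9 CPM, 3.65-fold higher [1.95 to 7.19] from 15 and 36 UMIs, with 0.778% and 1.84% of cells positive. These levels were below the 63.6 and 28.7 CPM of B and T cells (102 and 10 UMIs) and are read as background. By the ratio alone, 2 of the 4 members with enough UMIs, *Chil3* and *Ear2*, passed 2-fold upwards (7.29% of 6257 genes) and *Tgm2* downwards (3.2%), the *Ear2* values being read as background, and the median log2 ratio of all genes was 0.11.

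The gated subsets of CD115hi cells were examined next, since the antibody tags place single cells on the path from classical monocytes (P-I, Ly6C+) over Ly6C- MHC II+ CD301b- cells (P-III) to GM-CSF-induced DCs (GMiDCs; P-IV, Ly6C- MHC II+ CD301b+). P-I held 139 cells in the steady state and 187 after GM-CSF. P-III and P-IV held 126 and 313 cells after GM-CSF but only 12 and 7 in the steady state, so no ratio is given for the latter, and P-II (Ly6C- MHC II-) held 8 cells in each library and is left aside.

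P-I cells differed between libraries much as the bundle did. *Chil3* was 1843 CPM [1764 to 1925] in the steady state and 575 CPM [536 to 616] after GM-CSF, 3.21-fold lower [2.95 to 3.48], with 69.8% and 54.5% of cells positive. *Tgm2* was 42.1 CPM (46 UMIs) and 2.87 CPM (4 UMIs), 14.7-fold lower [5.36 to 56.1]; with 50 UMIs in all it met the minimum exactly and was lost from the count in any alternative that removed UMIs from it. The level after GM-CSF was below the 5.74 CPM of B and T cells, itself from 2 UMIs, so the size of the fold is not read. *Ear2* was 149 CPM [127 to 174] and 361 CPM [330 to 394], 2.42-fold higher [2.02 to 2.90], and 40.3% and 78.6% of cells were positive (thinned, 9.42% and 26.2%). *Il4ra* did not differ beyond its counting error, at 46.7 and 43.7 CPM (ratio 0.937 [0.635 to 1.39]). *Mrc1*, with 5 and 40 UMIs and so under the minimum for a count, was 4.58 and 28.7 CPM, a ratio of 6.27 [2.47 to 20.3]. Of the 4 members with enough UMIs, 1 was higher, against 4.99% of 5774 genes, and 2 were lower, against 7.12%, while the median log2 ratio of all genes was -0.10. The neutrophils list in P-I was 3472 and 3704 CPM, and the classical monocytes list was 2199 and 959 CPM.

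Along the subsets of the GM-CSF library *Chil3* and *Ear2* took different courses. *Chil3* was 575 CPM in P-I, 50.03 CPM [35.2 to 69.0] in P-III and 19.1 CPM [13.8 to 25.8] in P-IV, so that P-III was 11.5-fold lower than P-I [8.27 to 16.4] and P-IV 2.62-fold lower than P-III [1.64 to 4.16]. The P-IV level was close to the 17.2 CPM of B and T cells, which came from 6 UMIs. *Ear2* was 361, 400.2 and 423 CPM, with 78.6%, 76.2% and 83.7% of cells positive, and neither step was beyond its counting error (ratios 1.11 [0.958 to 1.28] and 1.06 [0.926 to 1.21]). From P-I to P-IV the *Ear2* ratio was 1.17 [1.05 to 1.31], a small rise beyond counting error and within 2-fold. *Mrc1* was 28.7, 56.8 and 29.4 CPM, with P-III 1.98-fold above P-I [1.25 to 3.13] and P-IV at 0.517 of P-III [0.346 to 0.780], both just inside the 2-fold limit. *Il4ra* was 43.7, 35.2 and 30.7 CPM, and both steps held 1 in their intervals. *Cd163* was counted 3, 4 and 11 times, too few for an order.

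Of the 4 members with enough UMIs in these 2 steps, none was higher in P-III than in P-I (1.11% of 5233 genes) and 1, *Chil3*, was lower (2.71%). None was higher in P-IV than in P-III (1.91% of 6216 genes), and again *Chil3* was lower (1.01%), from 80 UMIs, a count that thinning and a minimum of 200 UMIs removed. The neutrophils list was 3704 CPM in P-I, 257 CPM in P-III and 230 CPM in P-IV, and its part in the *Chil3* difference was not tested.

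**Figure D2:**
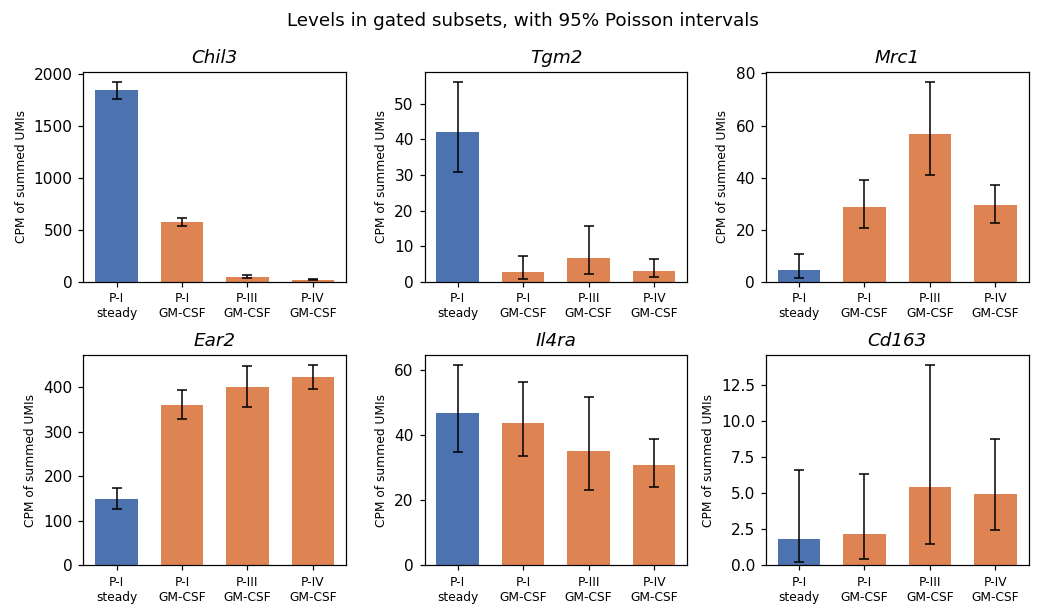
Levels of 6 genes in the gated CD115hi subsets with at least 20 cells. Each bar is the CPM of summed UMIs in 1 subset of 1 library (blue, steady state; orange, GM-CSF), each axis starts at 0, and error bars are 95% Poisson intervals. *Chil3* steps down from 1843 CPM in steady-state P-I to 19.1 CPM in P-IV, while *Ear2* stays between 361 and 423 CPM in all 3 subsets of the GM-CSF library.

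To compare like cells with like, the ratio was taken within each of the 12 transcriptome clusters of the bundle that held at least 20 cells in both libraries. For *Chil3*, 10 clusters had 50 UMIs or more, all 10 intervals lay below 1, and the ratios ran from 0.0536 in cluster 9 to 0.708 in cluster 8, with 9 of the 10 past 2-fold. In cluster 8, however, the 174 steady-state UMIs lay in 3 of 28 cells, with 169 of them in 1 cell. After GM-CSF 1380 UMIs lay in 130 of 352 cells, so the direction in cluster 8 is not read. The B and T cells themselves went from 128 to 17.2 CPM, cluster 9 after GM-CSF (12.1 CPM) was below the latter, and cluster 4 in the steady state (169 CPM) was near the former, so the size of the ratio in these 2 clusters is not read. For *Tgm2*, all 6 clusters with enough UMIs were lower, from 0.112 in cluster 11 to 0.369 in cluster 5. Cluster 5, at 16.1 and 5.95 CPM, was at or near the 21.8 and 5.74 CPM of B and T cells (the latter from 2 UMIs) and is read as background. *Ear2* had enough UMIs in all 12: 8 intervals lay above 1, 3 held 1 and 1, cluster 4, lay below at 0.745, and the highest ratio was 30.0 in cluster 8. Steady-state *Ear2* in clusters 3, 6, 7 and 8 (53.6, 34.1, 22.6 and 9.19 CPM) was below the 63.6 CPM of B and T cells, so the size of these ratios is not read, while their levels after GM-CSF (326, 270, 283 and 276 CPM) were above the 28.7 CPM of B and T cells. Clusters 1 and 5, at 86.9 and 84.8 CPM in the steady state, were below the 104 CPM of B cells alone. The size of their ratios is therefore not read either. *Mrc1* had enough in 5, with 2 above 1 (clusters 1 and 5), 2 holding 1 and 1 below, cluster 7 at 0.429 from 80 and 16 UMIs.

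Cluster 4 had the highest *Ear2* level of the bundle in the steady state, 816 CPM in 460 cells, against 608 CPM in 139 cells after GM-CSF, and also a high *Tgm2* level, 227 against 76.0 CPM. Cluster 6 had the highest *Chil3* level among clusters with 20 cells or more in both libraries, 4209 CPM in 297 steady-state cells and 1916 CPM in 108 cells after GM-CSF. The neutrophils list in cluster 6 went the other way, from 351 to 3432 CPM. Clusters 11, 14 and 15 held the neutrophils list at 20620, 21097 and 154029 CPM in the steady state and at 32204, 20080 and 149097 CPM after GM-CSF. With these 3 clusters left out, also a later choice, the *Chil3* ratio of the bundle was 0.120 in place of 0.149.

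**Figure D3:**
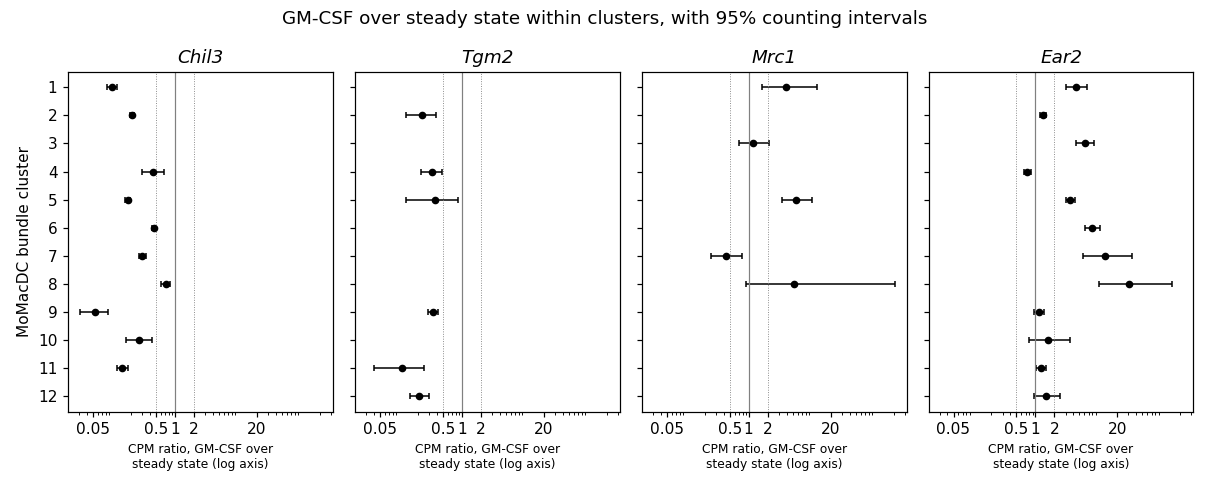
Ratio of the GM-CSF level to the steady-state level of *Chil3*, *Tgm2*, *Mrc1* and *Ear2* within each cluster with at least 20 cells per library and 50 UMIs over both. The x axis is the CPM ratio on a log axis, the y axis the cluster number, points are ratios, bars are 95% counting intervals, the solid line marks 1 and dotted lines mark 2-fold. All *Chil3* and *Tgm2* points lie left of the solid line, and 8 of 12 *Ear2* intervals lie right of it. The *Chil3* point of cluster 8 rests on 1 steady-state cell that held 169 of 174 UMIs.

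The spread among single cells differed by gene. In the steady state 1131 of 2135 bundle cells had *Chil3*, with a median of 16 UMIs and up to 169 in those cells, and 210 cells together held 50% of all its UMIs. After GM-CSF 880 of 3940 cells had it, with a median of 2 UMIs and up to 181, and 69 cells held 50%. The 22 cells richest in *Chil3* held 8.91% of its UMIs in the steady state, whereas the 40 richest cells (the same 1% of the bundle) held 38.1% after GM-CSF. The lower total thus came with fewer positive cells, fewer UMIs in a typical positive cell and a small set of cells with high counts. *Ear2* was more even, with 963 and 2882 positive cells, a median of 2 UMIs in positive cells of both libraries and a maximum of 21 and 16.

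**Figure D4:**
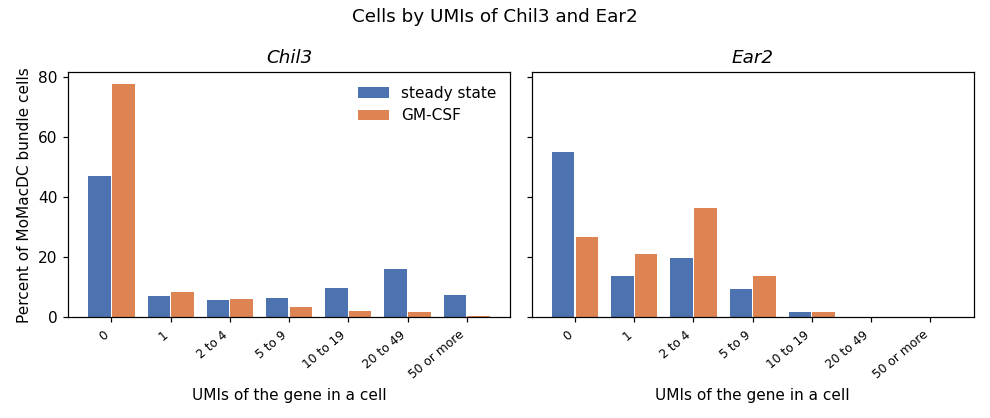
Percent of bundle cells by the number of *Chil3* (left) or *Ear2* (right) UMIs they held, in the steady state (blue) and after GM-CSF (orange). Cells without *Chil3* were 47.0% and 77.7% of the bundle, and cells without *Ear2* were 54.9% and 26.9%.

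Members were seldom interchangeable in the same cell. In the steady-state bundle *Tgm2* was found in 16.4% [14.2 to 18.6] of cells with *Chil3* and in 40.7% [37.7 to 43.8] of cells without it. *Ear2* was found in 71.2% [67.4 to 74.8] of cells with *Tgm2* and in 35.0% [32.7 to 37.5] of cells without it. The second pair kept its order when all cells were thinned to 1000 UMIs, at 36.4% [29.5 to 43.7] and 18.98% [17.3 to 20.8], and so did the first, at 2.61% [1.64 to 3.93] and 12.9% [11.1 to 14.9]. After GM-CSF *Ear2* was found in 61.7% of cells with *Tgm2* and in 74.0% of cells without it, and once thinned in 17.7% [9.20 to 29.5] and 26.5% [25.1 to 27.9], with intervals that overlap.

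The antibody tags, which are protein measurements that no expression value of the members entered, gave the same arrangement. Steady-state bundle cells with *Chil3* had a median of 931 Ly6C tag counts and 3 CD11c counts, and cells without it had 55 and 49. Cells with *Tgm2* had a median of 62.5 Ly6C and 71 CD11c counts, and cells without it had 714 and 4. Tag counts were not scaled for depth, and the median UMIs per cell were 7292 and 6038.5 for cells with and without *Chil3* and 6144.5 and 7107 for cells with and without *Tgm2*. When the cells were divided into 4 equal bins by their Ly6C count, *Chil3* in the steady state was 14.4, 574, 2413 and 3419 CPM from the lowest to the highest bin, *Tgm2* was 224, 116, 31.6 and 17.6 CPM, and *Ear2* was 397, 341, 135 and 74.4 CPM. After GM-CSF *Chil3* was 9.10, 13.9, 74.7 and 822 CPM and *Tgm2* was 32.6, 15.04, 8.86 and 4.85 CPM, in the same order as before. *Ear2* was 324, 341, 377 and 291 CPM after GM-CSF, with no such slope. *Mrc1* after GM-CSF was highest in the bin below the top, at 16.9, 25.1, 35.6 and 18.3 CPM.

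**Figure D5:**
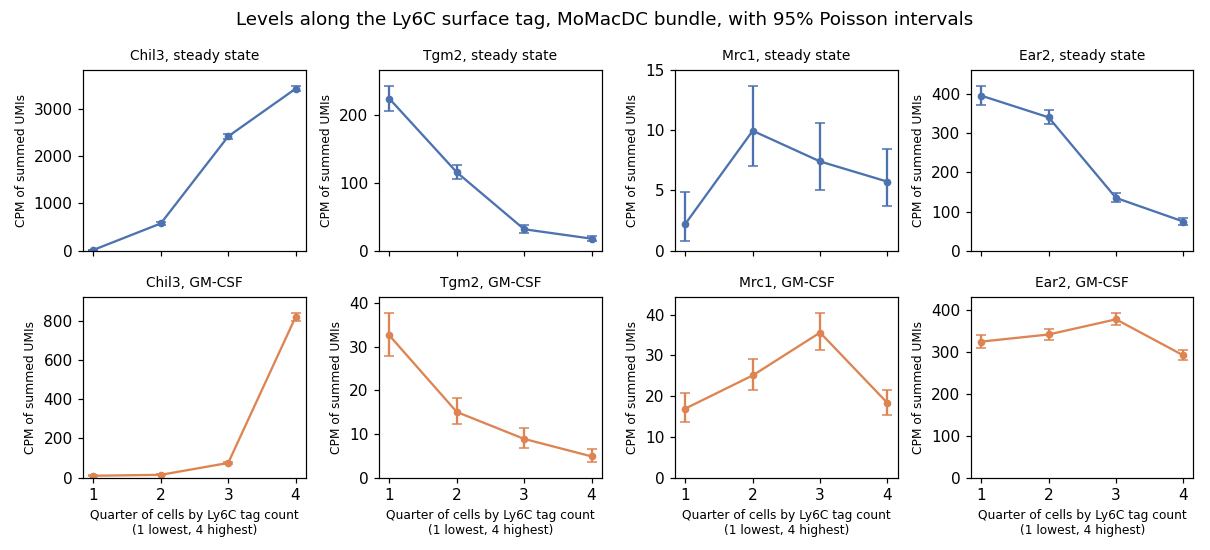
Levels of *Chil3*, *Tgm2*, *Mrc1* and *Ear2* in 4 equal bins of bundle cells ordered by Ly6C tag count, from lowest (1) to highest (4), in the steady state (top) and after GM-CSF (bottom). The y axes are CPM of summed UMIs and start at 0, and bars are 95% Poisson intervals. *Chil3* climbs and *Tgm2* descends with Ly6C in both libraries, and the steady-state descent of *Ear2* from 397 to 74.4 CPM has no counterpart after GM-CSF.

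CD301b, the lectin that defines the GMiDC gate, is a further marker of alternative activation. After GM-CSF, cells with *Cd163* had a median of 80.5 CD301b tag counts against 16 in cells without it, in 76 positive cells; in the steady state it was 4 against 3 in 26 positive cells. Cells with *Chil3* had 13 against 19 after GM-CSF and 6 against 1 in the steady state, the opposite order. For CD115, the receptor of M-CSF, GM-CSF library cells with *Mrc1* had a median of 51 counts against 35, and those with *Tgm2* had 8 against 39; in the steady state the medians were 7 against 4 and 4 against 4.

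By deposited cell cycle phase, *Ear2* was lower in G2M than in G1 cells of both libraries, and *Mrc1* was lower only in the GM-CSF library. Steady-state *Ear2* was 234 CPM in G1 and 64.0 CPM in G2M cells (ratio 0.274 [0.212 to 0.348]), and after GM-CSF it was 373 and 253 CPM (0.680 [0.644 to 0.717]). The steady-state G2M level was at the 63.6 CPM of steady-state B and T cells, so the size of the steady-state ratio is not read. *Mrc1* was 7.63 and 6.59 CPM in the steady state, from 87 and 7 UMIs (0.863 [0.337 to 1.85]), and 29.6 and 8.56 CPM after GM-CSF (0.289 [0.216 to 0.380]); the difference between libraries was not tested. *Chil3* was 1.2997 and 1.4345 times as high in G2M as in G1 in the 2 libraries. Phase and cell type were not separated in these values.

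The genes whose levels followed each member most closely over 23 groups of cells (cell type by library, log2 CPM) are given as a description, since groups of 1 library share its depth and free RNA. *Mrc1* was closest to *Axl* (r = 0.985), *C1qb* (0.963) and *Hebp1* (0.958), with the 2 Macrophage groups far above the rest for *Mrc1*. *Chil3* was closest to *Lamtor4* (0.835), *Prtn3* (0.799) and 1810055G02Rik (0.798). *Tgm2* was closest to *Lair1* (0.872) and *Treml4* (0.820). *Ear2* was closest to *Scarb1* (0.888), *Mospd2* (0.873) and *Pltp* (0.871), and *Il4ra* to *Tsc22d3* (0.832), *Ddx6* (0.783) and *Txnip* (0.755).

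The wider pathway was read in the bundle from lists of related genes. Of 19 genes of the IL-4 and IL-13 pathway, 16 had enough UMIs, none was higher after GM-CSF and 7 were lower, with a median ratio of 0.667 against 0.959 for all genes, of which 8.66% were higher and 9.46% lower. The lower ones were the common gamma chain gene *Il2rg* (97.0 and 42.9 CPM), the adaptor *Irs2*, the feedback inhibitor *Socs3* (115 and 31.6 CPM), the transcription factors *Pparg*, *Klf4* and *Cebpb* (1711 and 319 CPM), and the histone demethylase *Kdm6b*. Of 22 other alternative activation genes, 21 were in the table, 15 had enough UMIs, 7 were higher and 4 lower, and the median ratio was 1.96, beside the same 8.66%, 9.46% and 0.959 for all genes. The higher ones included the CD301b gene *Mgl2* (6.55 and 218 CPM), the chemokine *Ccl17* (1 and 372 UMIs), the inhibitory receptor *Cd200r1* (4.21 and 55.0 CPM) and the elastase *Mmp12* (13.6 and 157 CPM). The protein product of *Mgl2* is the antigen used to gate P-IV. *Mgl2*, *Cd200r1* and *Mmp12* are also among the P-IV genes that the paper listed from these same single-cell data. Their part in the count and in the median is therefore not independent of that list. The lower ones were the scavenger receptors *Cd36* and *Msr1*, *Flt1* and the fibronectin gene *Fn1* (979 and 246 CPM).

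Classical activation genes, the usual counterpart, were not higher either. Of 15 such genes 11 had enough UMIs, none was higher and 7 were lower, with a median ratio of 0.479 (all genes 8.66% higher, 9.46% lower, median 0.959). Among them were *Il1b* (367 and 41.3 CPM) and *Ptgs2* (54.5 and 6.50 CPM). Around the arginase reaction, 7 of 9 genes had enough UMIs, with 1 higher and 1 lower beside the same shares of all genes: *Odc1*, which makes polyamines from ornithine, was 2.26-fold higher at 26.3 and 59.3 CPM, and the mitochondrial arginase *Arg2* was lower at 10.3 and 2.55 CPM. In P-I cells the other alternative activation genes were 1 higher (*Clec10a*) and 5 lower of 8, with a median ratio of 0.473, where all genes of P-I were 4.99% higher and 7.12% lower with a median of 0.933.

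Relatives of the members by gene family differed among themselves. Of 28 relatives in the table, 6 had enough UMIs in the bundle. The transglutaminase genes *Tgm3* (11.3 and 0.332 CPM) and *F13a1*, the coagulation factor XIII A chain (415 and 27.3 CPM), were lower as *Tgm2* was, and *Tgm1* was higher (2.47 and 5.06 CPM). *Chil4*, the closest relative of *Chil3*, had 2 UMIs in all cells, against 80907 for *Chil3*, and *Retnlb* had 13.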

How the data were processed

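The deposited count table of the authors (UMI counts per gene and cell, Cell Ranger 3.0.2, mm10) was used as it stands, with the authors' deposited antibody tag counts (CITE-seq-Count 1.4.2) and their metadata, which give cell type, cluster, subset, phase and the percent of mitochondrial reads per cell. Cells outside 200 to 5000 detected genes, or above 15% mitochondrial reads, had been removed by the authors, who clustered the rest with Seurat 3.6.0. No step for free RNA was given in the sources used here. The tables of the MoMacDC cells repeat values of the whole table and were not used.

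UMIs were summed per group of cells and library, and intervals were computed with scipy 1.17.1 (pandas 2.3.3, Python 3.11.15). Ratio intervals are conditional binomial intervals for the ratio of summed counts. Doublets were kept, and Scrublet (scanpy 1.11.5) called 3.15% of steady-state and 2.73% of GM-CSF cells, which an alternative left out. For shares, cells were thinned to 1000 UMIs (seed 20), which dropped 38 steady-state and 578 GM-CSF cells, 14 and 61 of them in the bundle. The scripts were tested on simulated data. Genes named are the 8 members, genes past 2-fold of the pathway lists, and the 3 genes most like each member in log2(CPM + 10); some genes that this rule names are not reported here. Members and lists were chosen with earlier results of these data known. Alternatives were thinning, leaving out doublets, cells over 10% mitochondrial reads or the top cell, equal weight per cell, and a minimum of 200 UMIs.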

Additional observations from a re-analysis of the deposited data

Results flagged for a closer look

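The ratio of GM-CSF to steady state took opposite directions in different cell types for 2 of the genes, and the difference between types was not tested, since each condition had 1 library. For *Chil3* the ratio was 4.90 in Granulocyte cells, from 16.1 and 78.7 CPM, and 0.146 in MoMacDC_c1, from 2696 and 394 CPM. In B and T cells *Chil3* was 128 and 17.2 CPM, from 206 and 6 UMIs, with 85 of the 206 in 1 cell. For *Ear2* the ratio was 2.53 in MoMacDC_c1, from 132 and 334 CPM, and 0.345 in the cells deposited as B cell, from 104 and 35.9 CPM (91 and 9 UMIs). B cells are not known to make *Ear2*, and the neutrophils list in B and T cells moved from 3054 to 669 CPM; its part in these values was not tested.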

How the results depend on the processing

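No paired analysis was possible because each condition had 1 library and no result comes from a test. The number of members past 2-fold in the bundle was 3 under each alternative run. In P-I it was 3, or 2 after thinning, without doublets, at up to 10% mitochondrial reads, without the top cell and at a minimum of 200 UMIs, where *Tgm2* lost its 50 UMIs or the stricter minimum. In Granulocyte cells it was 3, or 2 after thinning, without the top cell, at 200 UMIs and without cells with granule genes. Leaving out those cells, cells with a C1q UMI, or clusters 11, 14 and 15 was chosen after seeing the data. For P-III against P-I the count was 1, and 2 without doublets, where *Mrc1* passed 2-fold. For P-IV against P-III it was 1, but 0 after thinning and at 200 UMIs, and 2 without doublets and at up to 10% mitochondrial reads, *Mrc1* being the addition. Among members past 2-fold in these comparisons, no ratio changed direction. Ratios within 2-fold were not checked for direction. Equal weight per cell moved 3 of 22 ratios beyond their counting intervals, thinning 8 of 21, and leaving out doublets or the top cell 1 of 22 each. Thinning moved 134 of 159 shares of positive cells, which is how a share responds to fewer UMIs, so shares are comparable only at equal depth. With 1 library per condition, differences between animals or between sorts and differences between the conditions cannot be told apart.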
